A study of Mus musculus with 6 samples.

Results

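The genes described here are 53 genes of the cell cycle and of DNA replication in mouse, chosen by name and read from a table of 21115 probe sets, each named by a gene ID. Of the 53, 51 were measured, and Pcna and Ccnb1 were not analysed here. The samples were primary hepatocytes, the parenchymal cells of the liver, from 3 C57BL/6 mice. All were plated on collagen in serum medium with dexamethasone, moved to serum-free medium with dexamethasone, and changed the next day to serum-free medium without it. In 3 samples recombinant BMP2, a bone morphogenetic protein that signals through SMAD factors, was added at 50 ng/ml for 24 hours, and the other 3 samples were controls without BMP2. The age and sex of the animals are not given in the sources used here, and each array averages over all cells of a culture.

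A cell that leaves rest first makes D cyclins, which bind CDK4 and CDK6 and phosphorylate the retinoblastoma protein, and the E2F factors this frees switch on the genes of DNA replication. Cyclin A, and later cyclin B with CDK1, then carry the cell through S phase, G2 and mitosis. The anaphase-promoting complex ends mitosis by marking cyclins and other proteins for destruction. Hepatocytes of the adult liver are mostly at rest and can re-enter the cycle after loss of liver tissue. Many mitotic genes are held off in resting cells by the DREAM complex, which binds a promoter element called the CHR, often beside CCAAT boxes bound by NF-Y, while many replication genes carry E2F sites.

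Most of these genes were lower with BMP2, by small amounts. Of 51 measured genes, 47 had a BMP2 minus control difference below 0, against 48.3% of all probe sets, and their median difference was -0.077 on the log2 scale, against 0.0007 over all probe sets. The median was -0.086, -0.093 and -0.058 in the pairs of replicates 1, 2 and 3. In 29 of the 51 genes all 3 BMP2 values lay below all 3 control values, against 8.25% of all probe sets, and in 0 genes all BMP2 values lay above, against 8.42%. The genes share samples and often vary together, so these counts describe the set and are not tests of it.

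In limma without a block over all probe sets, with p adjusted by Benjamini-Hochberg and called under 0.05, 2 of the 51 genes fell, Ube2c and Kif20a, and 49 did not pass. The same test called 0.573% of all probe sets lower. None of the 51 rose (0 genes, against 0.616% of all probe sets called higher), and 0 were higher even at an unadjusted limma p under 0.05, against 6.42% of all probe sets. At that unadjusted level 28 were lower, against 6.10%. With the replicate number as a block, which compares BMP2 and control samples of the same number, 6 of the 51 genes fell, against 1.64% of all probe sets, and 0 rose, against 1.68%. The 6 were Ube2c, Kif20a, Mki67, Ccna2, Cdk4 and Rrm1. Because the numbers were read as pairs, the fit with the block follows the design, while the fit without it treats all samples as independent. Each SE and interval below is from the fit without the block, as is each adjusted p unless another setting is named.

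**Figure D1:**
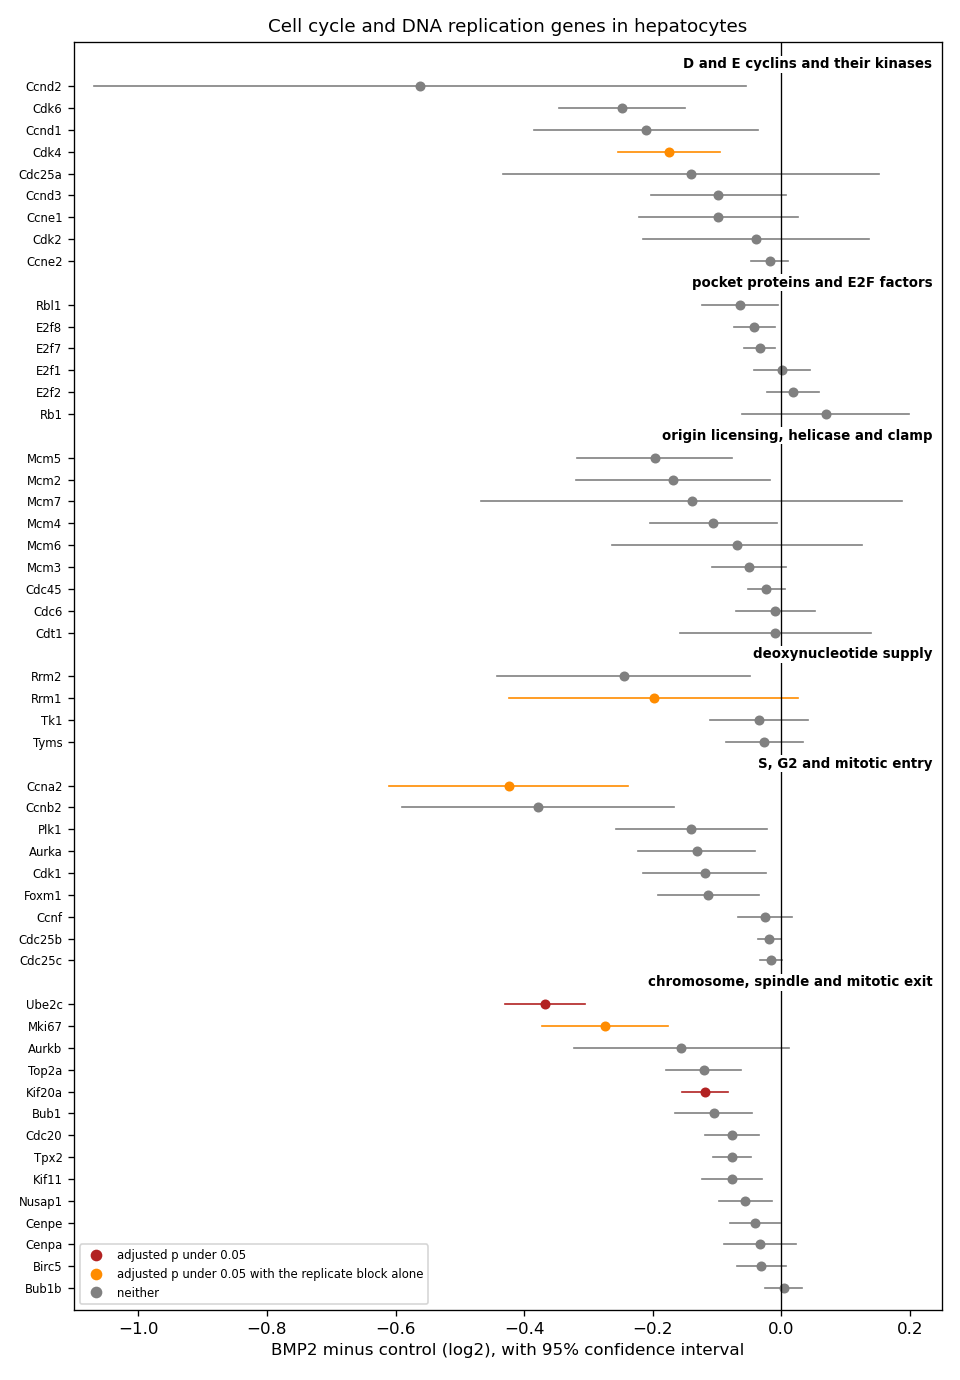
BMP2 minus control difference (log2, horizontal axis) with its 95% confidence interval from the fit without the block, for the 51 measured genes, grouped by role. Ube2c and Kif20a passed the threshold and 4 further genes passed with the replicate block, while 47 of the 51 points lie left of 0.

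The promoters of 3 mitotic genes and of Cdk4 are shown. The first 3 hold the CHR and CCAAT boxes of the mitotic class, while that of Cdk4 holds neither. These 3 genes also had the lowest differences with BMP2 of all the genes found with a CHR, so they do not stand for that class. The sequences are from RefSeq (GRCm38.p6) and run from 230 bases before to 20 bases after the annotated start of transcription, 5′ to 3′ on the gene's strand. Capitals mark the CHR (TTTGAA or TTCGAA) and the CCAAT box (CCAAT), each searched on both strands, so that the run CCAATTGG counts as 2 overlapping boxes.
Ube2c, chr2:164769699-164769948, plus strand: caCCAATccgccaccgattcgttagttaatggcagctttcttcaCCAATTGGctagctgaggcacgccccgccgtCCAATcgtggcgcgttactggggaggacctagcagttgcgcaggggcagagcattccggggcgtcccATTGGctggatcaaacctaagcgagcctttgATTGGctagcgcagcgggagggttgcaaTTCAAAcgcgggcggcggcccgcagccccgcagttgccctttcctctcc
Mki67, chr7:135716360-135716609, minus strand: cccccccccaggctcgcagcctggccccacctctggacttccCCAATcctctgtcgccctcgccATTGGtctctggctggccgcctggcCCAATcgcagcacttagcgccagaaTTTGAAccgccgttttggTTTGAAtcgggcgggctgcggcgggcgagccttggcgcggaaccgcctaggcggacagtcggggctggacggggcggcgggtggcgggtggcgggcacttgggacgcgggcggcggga
Ccnb2, chr9:70421535-70421784, minus strand: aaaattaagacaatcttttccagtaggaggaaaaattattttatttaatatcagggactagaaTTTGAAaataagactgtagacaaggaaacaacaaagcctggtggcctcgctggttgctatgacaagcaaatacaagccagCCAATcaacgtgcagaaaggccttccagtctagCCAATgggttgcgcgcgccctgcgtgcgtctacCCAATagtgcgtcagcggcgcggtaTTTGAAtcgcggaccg
Cdk4, chr10:127063305-127063554, plus strand: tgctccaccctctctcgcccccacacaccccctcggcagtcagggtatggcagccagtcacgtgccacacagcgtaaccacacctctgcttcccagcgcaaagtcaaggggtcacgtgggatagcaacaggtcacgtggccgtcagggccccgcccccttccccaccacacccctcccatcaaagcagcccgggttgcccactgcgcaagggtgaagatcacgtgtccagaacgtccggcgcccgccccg
The Ube2c window holds 6 CCAAT boxes and 1 CHR, which lies between the boxes and the start, and the Mki67 and Ccnb2 windows hold 3 CCAAT boxes and 2 CHRs each.

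Of the 51 genes, 40 had a promoter entry, which covers 250 bases before to 50 bases after the start. A CHR was found in 19 of the 40 (47.5%), against 21.7% of 27025 genes with an entry, and a CCAAT box in 29 (72.5%), against 41.1%. All 19 promoters with a CHR also held a CCAAT box, a combination found in 8.6% of all genes. An E2F site (TTTCCCGC, TTTCGCGC, TTTGCCGC or TTTGGCGC, on both strands) was found in 12 of the 40 (30.0%), against 2.6% of all genes. The median difference with BMP2 was -0.11 in the 19 genes with a CHR and -0.056 in the 21 without one. It was -0.098 in the 29 genes with a CCAAT box, which include those 19, and -0.0345 in the 11 without one. It was -0.057 in the 12 genes with an E2F site and -0.087 in the 28 without one. Of the 19 genes with a CHR, Bub1b (0.0036) and E2f2 (0.018) lay above 0 and the others below. Cdk6 (-0.25) and Rrm2 (-0.25) were lower with BMP2 and held no CHR. The motifs are matches of letters within 1 window a gene, and none of the pairs of medians was tested.

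The genes of mitotic exit and of the spindle held both genes that passed. Of 14 measured, 2 fell, against 0.573% of all probe sets, and 12 did not pass. Below 0 lay 13, against 48.3% of all probe sets. In 10 all BMP2 values lay below all control values, against 8.25%. The median was -0.077, and 11 of the 14 had a mean under 7 over all samples. Ube2c encodes the E2 enzyme that supplies ubiquitin to the anaphase-promoting complex. It stood at 8.05, 7.99 and 8.06 on the log2 scale in BMP2 replicates 1, 2 and 3, against 8.43, 8.40 and 8.38 in the controls. The groups did not overlap, and the gap between them exceeded the range within either group. The difference was -0.37 ± 0.0245 (SE, n = 3 each), a 1.29-fold lower level, with a limma adjusted p of 0.0090 (0.026 with the replicate block). Kif20a, a kinesin of the central spindle and of cytokinesis, stood at 6.89, 6.88 and 6.92 in BMP2 samples, against 7.001, 7.02 and 7.03 in controls. Its groups were apart as well, by a smaller step, with a difference of -0.12 ± 0.014 (SE) and a limma adjusted p of 0.039. The mean of Kif20a over all samples was 6.96, so it was not tested where a minimum mean of 7 was set. With 1 sample left out Ube2c passed in 3 of the 6 fits and Kif20a in 1. The adjusted p of Ube2c was 0.056 without BMP2 replicate 1, 0.053 without control replicate 1 and 0.065 without control replicate 2, and that of Kif20a lay between 0.088 (without control replicate 1) and 0.16 (without control replicate 2) in the 5 fits in which it was lost. Kif20a passed without BMP2 replicate 3 (0.045) and was lost without BMP2 replicate 1, BMP2 replicate 2, control replicate 1, control replicate 2 or control replicate 3.

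Mki67 encodes Ki-67, the protein that coats mitotic chromosomes and marks cycling cells. It stood at 6.92, 6.86 and 6.99 with BMP2, against 7.24, 7.17 and 7.19 in controls. No BMP2 value reached a control value. The difference was -0.27 ± 0.039 (SE), with a limma adjusted p of 0.054, and it passed with the replicate block (0.048). Tpx2, which activates Aurora A on the spindle, stood at 6.69, 6.67 and 6.69 with BMP2, against 6.75, 6.76 and 6.78 in controls (-0.077 ± 0.012, limma adjusted p = 0.065). Top2a, topoisomerase II alpha, which untangles sister chromatids, stood at 6.78, 6.76 and 6.75 with BMP2, against 6.85, 6.87 and 6.93 in controls (-0.12 ± 0.023, limma adjusted p = 0.10). In both genes the groups were separate by a narrow step.

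Cdc20, an activator of the anaphase-promoting complex, stood at 6.92, 6.88 and 6.94 with BMP2, against 6.98, 6.99 and 6.995 in controls (-0.077 ± 0.0165, limma adjusted p = 0.13). Bub1, a kinase of the spindle checkpoint, stood at 6.59, 6.54 and 6.60 with BMP2, against 6.66, 6.67 and 6.71 in controls (-0.11 ± 0.023, limma adjusted p = 0.14). Kif11, the kinesin that separates spindle poles, stood at 6.67, 6.67 and 6.70 with BMP2, against 6.73, 6.76 and 6.78 in controls (-0.076 ± 0.018, limma adjusted p = 0.17). These 3 genes were separate between the groups and did not pass. Nusap1 and Cenpe were also separate, at -0.056 and -0.041, while Aurkb (-0.16), Birc5 (-0.031), Cenpa (-0.033) and Bub1b (0.0036) overlapped between the groups.

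**Figure D2:**
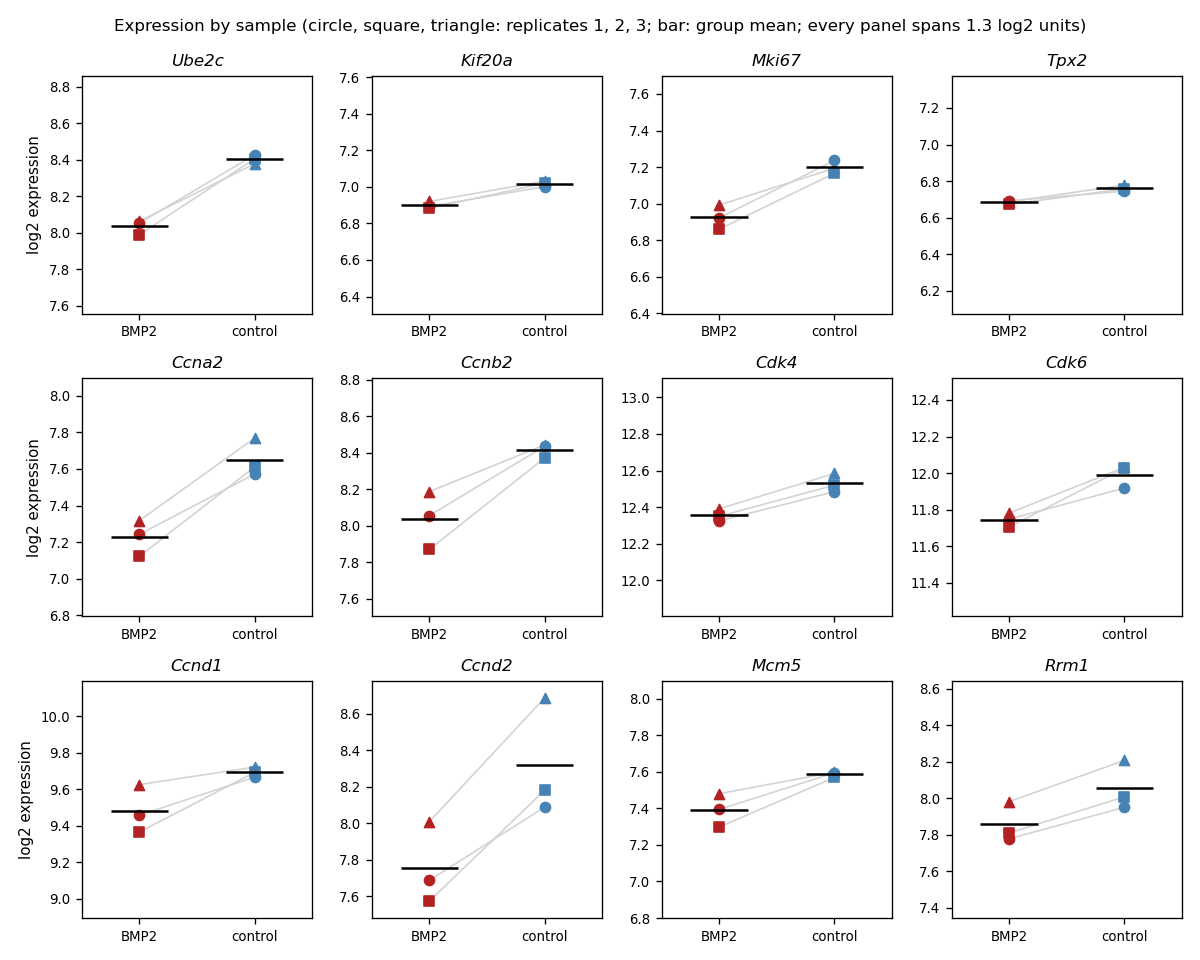
Log2 expression of 12 genes in each sample (vertical axis, every panel spanning 1.3 log2 units), BMP2 left of control, with lines joining samples of the same replicate number and bars at the group means. The Ube2c values stand 0.31 to 0.42 below their controls in the 3 pairs, and those of Rrm1 0.17 to 0.23 below although its groups overlap.

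The genes of S phase, G2 and entry into mitosis were separate, with BMP2 lower, in 8 of 9 genes, against 8.25% of all probe sets. All 9 lay below 0 in each of the 3 pairs, as did 17.6% of all probe sets. None of the 9 passed in limma without the block (0 genes, against 0.573% of all probe sets called lower). At an unadjusted p under 0.05, 7 were lower, against 6.10% of all probe sets. The median difference was -0.12. Ccna2, cyclin A2, which drives S phase and entry into mitosis, stood at 7.24, 7.12 and 7.32 with BMP2, against 7.57, 7.61 and 7.77 in controls. Every BMP2 value lay well below the lowest control. The difference was -0.42 ± 0.073 (SE), a 1.34-fold lower level, with a limma adjusted p of 0.084, and Ccna2 passed with the replicate block (0.040). Ccnb2, cyclin B2, a partner of CDK1 in mitosis, stood at 8.06, 7.87 and 8.19 with BMP2, against 8.44, 8.37 and 8.44 in controls (-0.38 ± 0.083, limma adjusted p = 0.14). The BMP2 values of Ccnb2 were spread more widely (SD 0.16) than its controls (SD 0.040).

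Cdk1, the kinase of mitotic entry, stood at 6.92, 6.94 and 6.998 with BMP2, against 7.03, 7.04 and 7.14 in controls (-0.12 ± 0.038, limma adjusted p = 0.29). Aurka, the centrosome kinase Aurora A, stood at 6.98, 6.96 and 7.04 with BMP2, against 7.19, 7.10 and 7.09 in controls (-0.13 ± 0.036, limma adjusted p = 0.22). Foxm1, the transcription factor that switches on G2 and mitosis genes, stood at 6.71, 6.67 and 6.76 with BMP2, against 6.85, 6.78 and 6.85 in controls (-0.11 ± 0.031, limma adjusted p = 0.22). The groups were separate by a narrow step in these 3 genes. Plk1, a kinase of mitotic entry, differed by -0.14, and Cdc25b and Cdc25c, phosphatases that activate CDK1, by -0.019 and -0.016. Ccnf was the gene of the 9 whose groups overlapped (-0.025).

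The D and E cyclins and their kinases lay below 0 in 9 of 9 genes, against 48.3% of all probe sets, with a median of -0.14. Without the block 0 passed, and 4 were lower at an unadjusted limma p under 0.05, against 6.10% of all probe sets. Cdk6 and Cdk4, the kinases that pair with D cyclins, were separate between the groups. Cdk6 stood at 11.75, 11.71 and 11.78 with BMP2, against 11.92, 12.03 and 12.03 in controls (-0.25 ± 0.038, limma adjusted p = 0.066). Cdk4 stood at 12.32, 12.35 and 12.39 with BMP2, against 12.48, 12.52 and 12.58 in controls (-0.17 ± 0.031, limma adjusted p = 0.092). Cdk4 differed by nearly the same amount in each pair (-0.16, -0.17 and -0.19). With the replicate block its adjusted p was 0.024, and that of Cdk6 was 0.073.

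Ccnd1, cyclin D1, the main D cyclin of regenerating liver, stood at 9.46, 9.37 and 9.62 with BMP2, against 9.67, 9.69 and 9.72 in controls. The groups were separate by a narrow step, and the BMP2 values varied more (SD 0.13) than the controls (SD 0.027). The difference was -0.21 ± 0.069 (limma adjusted p = 0.30, 95% interval -0.38 to -0.036). Ccnd2, cyclin D2, had the largest difference of the 51 genes and a wide spread, with 7.69, 7.57 and 8.01 with BMP2, against 8.09, 8.18 and 8.69 in controls. Replicate 3 was highest in both groups, and the lowest control stood just above the highest BMP2 value. The difference was -0.56 ± 0.20 (limma adjusted p = 0.34, and 0.054 with the replicate block). Ccne1, cyclin E1, which starts S phase with CDK2, stood at 7.43, 7.47 and 7.56 with BMP2, against 7.51, 7.60 and 7.64 in controls, so that the groups overlapped (-0.098 ± 0.048, limma adjusted p = 0.54). Ccnd3 (-0.098), Cdc25a (-0.14), Cdk2 (-0.039) and Ccne2 (-0.018) overlapped between the groups too, and Cdk2 lay above 0 without BMP2 replicate 1 (0.012).

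All 9 measured genes of origin licensing and of the replicative helicase lay below 0, against 48.3% of all probe sets, with a median of -0.069. In 3 of the 9 the groups were separate with BMP2 lower, against 8.25%. In limma 0 passed, and 3 were lower at an unadjusted p under 0.05, against 6.10%. Mcm5, a subunit of the MCM helicase, stood at 7.39, 7.30 and 7.48 with BMP2, against 7.59, 7.57 and 7.60 in controls (-0.20 ± 0.047, limma adjusted p = 0.17). Mcm2, another subunit, stood at 7.55, 7.52 and 7.68 with BMP2, against 7.81, 7.66 and 7.78 in controls (-0.17 ± 0.0595, limma adjusted p = 0.34). BMP2 replicate 3 of Mcm2 lay above control replicate 2. Mcm4 (-0.11) and Mcm3 (-0.051) were separate, and Mcm7 (-0.14), Mcm6 (-0.069), Cdc45 (-0.023), Cdc6 (-0.0091) and Cdt1 (-0.0091) overlapped. Without BMP2 replicate 1 Cdc6 and Cdt1 lay above 0 (0.0145 and 0.031), and so did Cdt1 without BMP2 replicate 2 or control replicate 3. The median of the 9 genes was -0.12, -0.050 and 0.0039 in pairs 1, 2 and 3.

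Of the 4 genes that supply deoxynucleotides, 4 lay below 0, against 48.3% of all probe sets, and 0 passed without the block. At an unadjusted limma p under 0.05, 1 was lower, against 6.10% of all probe sets. Rrm1 and Rrm2 encode the large and the small subunit of ribonucleotide reductase, which makes deoxynucleotides from ribonucleotides. Rrm1 stood at 7.78, 7.81 and 7.98 with BMP2, against 7.95, 8.01 and 8.21 in controls. BMP2 replicate 3 lay within the range of the controls, but each BMP2 sample lay below the control of its own number, by 0.17, 0.20 and 0.23. The limma adjusted p was 0.47 without the block and 0.030 with it (difference -0.20). Rrm2 stood at 7.22, 7.22 and 7.34 with BMP2, against 7.44, 7.42 and 7.66 in controls (-0.25 ± 0.078, limma adjusted p = 0.29, and 0.056 with the block). Tyms, thymidylate synthase (-0.026), and Tk1, thymidine kinase 1 (-0.0345), overlapped between the groups.

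The pocket proteins and E2F factors lay on both sides of 0. Of 6 genes 3 lay below 0, against 48.3% of all probe sets, and the median was -0.016. In limma 0 passed, and 3 were lower at an unadjusted p under 0.05, against 6.10% of all probe sets. Rb1, the retinoblastoma gene, stood at 7.73, 7.86 and 7.67 with BMP2, against 7.66, 7.71 and 7.68 in controls (0.069 ± 0.051, limma adjusted p = 0.76, 95% interval -0.061 to 0.20). E2f1, an activating E2F, stood at 6.97, 6.94 and 6.98 with BMP2, against 6.99, 6.94 and 6.95 in controls (0.0010 ± 0.017, limma adjusted p above 0.99, 95% interval -0.043 to 0.045). The groups overlapped in both genes. Rbl1, the pocket protein p107 (-0.064), and the repressor E2Fs E2f7 (-0.0335) and E2f8 (-0.042) were separate between the groups and did not pass, and E2f2 differed by 0.018. Whether this group of genes differs from the cyclins was not tested.

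Levels near the lowest values of an array are compressed, so small differences of dim genes do not show that these were unchanged. Of the 51 genes, 26 had a mean under 7 over all samples and a median difference of -0.034, and the 25 with a mean of at least 7 had a median of -0.16. Of these 25, 24 lay below 0 and 14 were separate between the groups, against 11.6% of the 8879 probe sets of the table with such a mean, whose median was 0.0078. Of the 26 dim genes 15 were separate between the groups with BMP2 lower, against 8.25% of all probe sets. The share among dim probe sets alone was not counted.

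**Figure D3:**
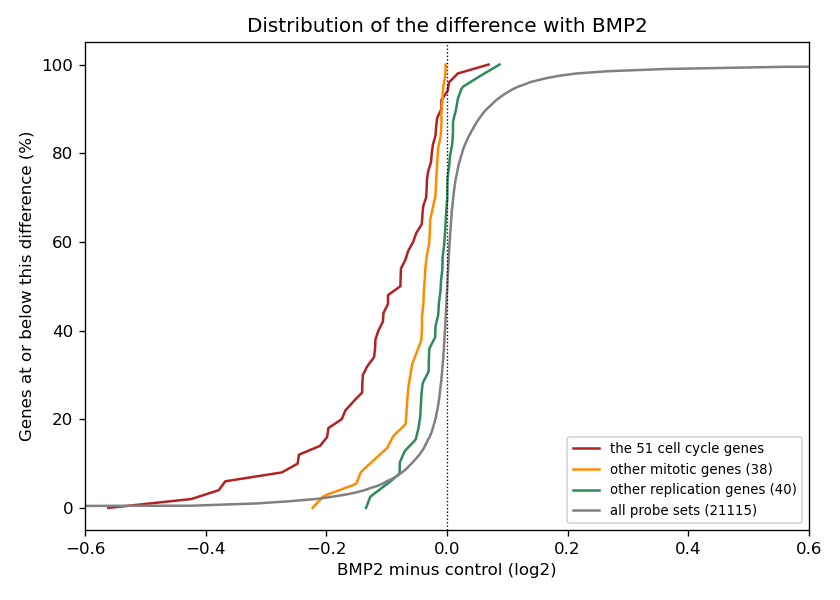
Share of genes (%, vertical axis) at or below each BMP2 minus control difference (log2, horizontal axis) for the 51 cell cycle genes, 38 other mitotic genes, 40 other replication genes and all 21115 probe sets. The medians are -0.077, -0.038, -0.010 and 0.0007 in the order named.

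Other genes of the same processes were read from lists that hold none of the 53. The lists were read in the same samples and chosen with earlier results of these data known, so they are not a separate test. Of 38 other mitotic genes measured, 38 lay below 0, against 48.3% of all probe sets, with a median of -0.038. In 20 of them the groups were separate with BMP2 lower, against 8.25% of all probe sets. In limma 1 of the 38 fell, against 0.573% of all probe sets, Kif2c, a kinesin that takes microtubules apart at centromeres, and 37 did not pass. Kif2c stood at 6.68, 6.70 and 6.69 with BMP2, against 6.75, 6.75 and 6.75 in controls (-0.061 ± 0.0076, limma adjusted p = 0.044, and 0.065 with the replicate block). It is a dim gene, with a mean of 6.72 over all samples. Anln, anillin, a scaffold of the cleavage furrow (-0.22), and Dlgap5 (-0.12) fell with the block (adjusted p = 0.027 and 0.049), against 1.64% of all probe sets called lower with it. Kif18b, another mitotic kinesin, differed by -0.058 (adjusted p = 0.061). Of 40 other replication genes 27 lay below 0, against 48.3% of all probe sets, and 8 were separate with BMP2 lower, against 8.25%. In that list 0 passed with or without the block, 7 were lower at an unadjusted limma p under 0.05, against 6.10% of all probe sets, and the median was -0.010. The smallest p in that list were those of Dut, which removes dUTP (-0.052, adjusted p = 0.073), and Lig1, DNA ligase 1 (-0.070, adjusted p = 0.14).

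Among 12 other genes of the DREAM complex and the E2F family, Lin37, a subunit of DREAM, rose by 0.066 (limma adjusted p = 0.048, and 0.066 with the replicate block), and 11 did not pass. The same test called 0.616% of all probe sets higher. E2f4, an E2F of resting cells, had the next smallest p and differed by -0.0905 (adjusted p = 0.51). None of 7 CDK inhibitor genes passed (0 at an unadjusted limma p under 0.05, against 6.10% of all probe sets lower and 6.42% higher). Cdkn1a, the p21 gene, stood at 12.90, 12.95 and 12.81 with BMP2, against 12.91, 12.95 and 13.02 in controls, and Cdkn1b, the p27 gene, differed by 0.11 ± 0.048 (adjusted p = 0.45), while the smallest p was that of Cdkn2c (-0.040, adjusted p = 0.40).

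In many of these genes replicate 3 held the highest value of its group, a description and not a test. In 44 of the 51 genes the highest BMP2 value was that of replicate 3, against 38.9% of all probe sets, and in 35 of the 51 the highest control value was that of replicate 3, against 32.7%. A limma F test of the replicate number, with BMP2 in the model, called 0 of the 51 genes (background 0.0284%), and 12 had an unadjusted p under 0.05 (background 14.8%). The smallest were those of Rrm1 (unadjusted p = 0.00098), Cdc25a (0.0048) and Ccnd3 (0.0053). Without BMP2 replicate 3 the median difference of the 51 genes was -0.11 and 3 genes fell, Ube2c, Kif20a and Mki67, against 0.464% of all probe sets.

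**Figure D4:**
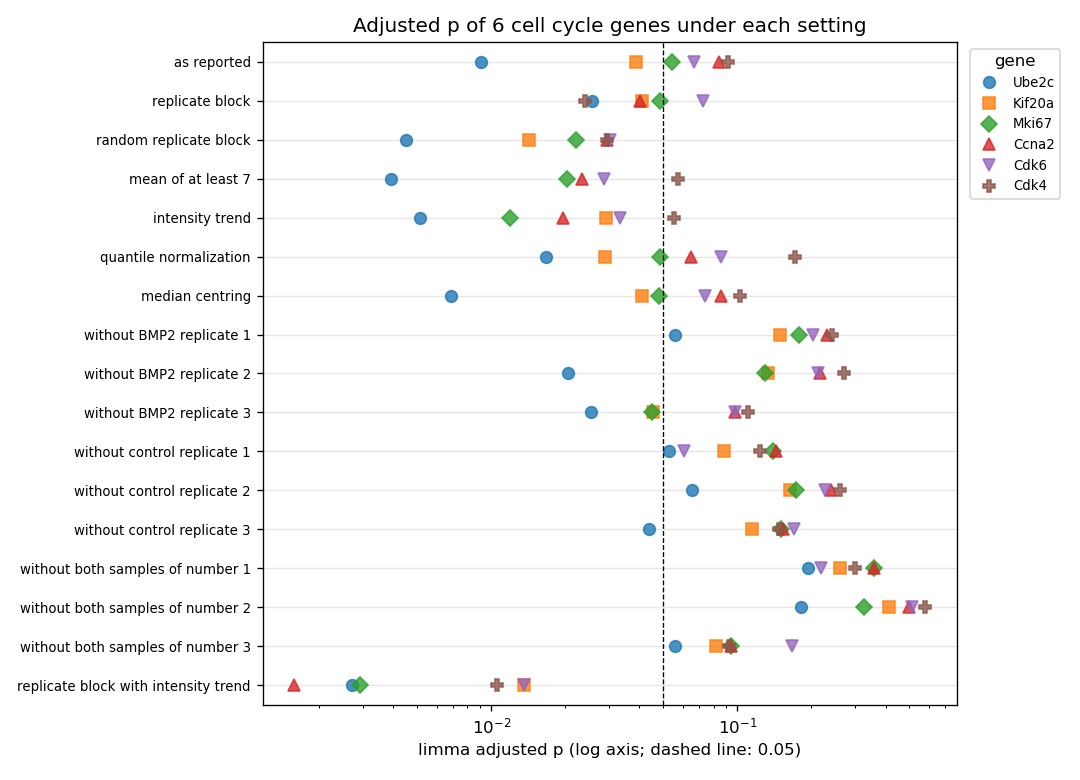
Limma adjusted p (log axis, dashed line at 0.05) of 6 genes as reported and under each other setting of the model or choice of samples. Ube2c lies left of the line in 11 of 17 settings and Kif20a in 8 of 16. Of 17 settings, Mki67 lies left in 8, Ccna2 in 5, Cdk6 in 4 and Cdk4 in 3. Mki67, Ccna2 and Cdk4 do so in every setting with a replicate block, and Cdk6 in all of these but the fixed block alone. Mki67, Ccna2 and Cdk6 also do so in some settings without a block.

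The samples were checked for their labelled cell type. Of 9 hepatocyte markers 8 had a mean of at least 7, with Alb between 13.71 and 13.83 in BMP2 samples and between 13.79 and 13.84 in controls, and the mean of Cps1 was under 7. Markers of endothelial cells (9 of 10), macrophages (9 of 10), stellate cells and fibroblasts (8 of 10), bile duct cells (4 of 6) and blood cells (11 of 11) mostly had means under 7, Stab2, Clec4f, Lrat, Epcam and Ptprc among them. Means above 7 were found for Sox9 (10.17) and Krt19 (8.51) of bile duct cells and Cd68 (7.58) of macrophages, among others. None of these marker genes passed in limma (0 genes, against 0.573% of all probe sets called lower and 0.616% higher). At an unadjusted p under 0.05, 5 of the 9 hepatocyte markers and Sox9 were higher, against 6.42% of all probe sets. Acta2 and Krt19 were lower at that level, against 6.10%. With the replicate block 2 of the 9 hepatocyte markers and Sox9 passed, all higher, against 1.68% of all probe sets. Acta2, smooth muscle actin, stood at 7.84, 7.84 and 8.08 with BMP2, against 8.62, 8.21 and 8.39 in controls (-0.49, adjusted p = 0.20), and Krt19, a keratin of bile duct cells, differed by -0.51 (adjusted p = 0.073). Over each sample's list, the mean level of stellate cell and fibroblast markers was 6.86 to 6.92 with BMP2, against 6.91 to 6.97 in controls, and 6 of the 10 markers lay above 0, with a list median of 0.0023. Acta2 had by far the largest difference of the 10, and the other markers lay between -0.066 (Col1a1) and 0.029 (Dcn). The mean level of hepatocyte markers was 10.61 to 10.78 with BMP2, against 10.43 to 10.55 in controls. Their part in the lower cell cycle values was not tested, and fewer cycling cells cannot be told apart from less RNA of these genes per cell.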

How the data were processed

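Expression was measured with an Affymetrix array in 3 BMP2 and 3 control samples. The authors' deposited log2 values, 1 per probe set and sample, come from RMA, robust multi-array averaging, according to processing notes of the submitters. Settings and filters are not given in the sources used here. An array holds no counts, so the number of samples limits the precision.

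Groups and replicate numbers came from the sample titles. All 21115 probe sets were fitted with limma 3.58.1 in R 4.3.3 (lmFit, eBayes, two-sided), without a block and without further normalization, with Benjamini-Hochberg adjustment over all of them. Symbols came from the platform annotation (20405 probe sets). As a check of pairing, deviations from group means were correlated between the BMP2 and control sample of each number (0.48, 0.58 and 0.61). The design names 3 mice, and the numbers were read as pairs. The fit without a block, whose results are given first, does not use this pairing. The scripts were tested on simulated data.

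Values in every sample were given for the 15 genes with the smallest p and for 10 genes fixed by name (8 of them measured). Rrm1, Rrm2, Ccnd2 and the other genes of the set were described after their values were seen. So were Alb, Cps1, Acta2, Krt19, Sox9, Cd68, Col1a1, Dcn, Cdkn1a, Anln and Dlgap5. The genes, lists and motifs were chosen with earlier results of these data known. Alternatives tried were the replicate block, fixed or random, a minimum mean of 7, an intensity trend, quantile normalization, median centring and leaving out each sample, with 2 added later.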

Additional observations from a re-analysis of the deposited data

How the results depend on the processing

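The number of the 51 genes that fell was 2 as reported, 6 with the replicate block, 7 with it as a random term, 5 among probe sets with a mean of at least 7, 8 with an intensity trend and 0 to 3 with 1 sample left out (0 without BMP2 replicate 1, control replicate 1 or control replicate 2). Among settings added after the data were seen it was 18 with the block and the trend together, 0 without both samples of replicate number 1 or 2, and 1 (Rrm2) without both of number 3. The share of all probe sets called lower was 1.62% with the random term, 2.43% with the minimum mean, 1.05% with the trend and 3.18% with block and trend. With 1 sample left out that share was 0.0805% to 0.464%. Without both samples of number 1, 2 or 3 it was 0.00947%, 0.00474% and 0.232%, so few probe sets of the whole table passed there. The 5 genes that fell with the minimum mean were Ube2c, Mki67, Ccna2, Cdk6 and Ccnb2. Over all probe sets 251 were called as reported and 702, 700, 443 and 438 under the first 4 alternatives, 30 to 223 with 1 sample left out, 1278 with block and trend, and 9, 2 and 114 without both samples of number 1, 2 or 3. Fewer genes are tested under the minimum mean and fewer samples enter when some are left out. The cause of the shifts between settings was not tested. Quantile normalization and median centring gave 3 genes each, adding Mki67, with 0.71% and 0.497% of all probe sets called lower. Under no setting did any of the 51 rise. The share of all tested probe sets called higher was 0.00474% (without both samples of number 2) to 2.87% (block and trend). With shares this small, a count of 0 says little about these genes. Among probe sets with a mean of at least 7, 24 of 25 genes lay below 0 and the median difference was -0.16. Otherwise 45 to 49 of 51 lay below 0, and with 1 sample left out the median was -0.11 to -0.067. With an intensity trend 2 genes, Ccnd2 and Cdc25a, differed between replicate numbers, against 0 as reported, with 1.03% and 0.0284% of all probe sets called. Of genes near 0, 5 changed sign with 1 sample left out. The ranges were -0.0075 to 0.016 for E2f1 (also -0.013 without both samples of number 3), -0.11 to 0.012 for Cdk2, -0.031 to 0.0145 for Cdc6, -0.065 to 0.031 for Cdt1 and -0.0029 to 0.012 for Bub1b. The precision rests on 3 samples a group, and dim genes lie near the array's lowest value.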
